A study of Mus musculus with 6 samples.

Results

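The ErbB receptors and their neuregulin and EGF-type ligands were followed in whole testis RNA of mice aged 14 days after birth, from 3 animals with a conditional deletion of Rnu11 (genotype Rnu11 cKO, called mutants here) and 3 control animals. Rnu11 encodes U11, a small nuclear RNA needed for splicing of the rare minor-class introns. The sources used here do not give the cells in which Rnu11 was deleted, the Cre line or the alleles of the control animals. RNA was sequenced as ribosomal RNA-depleted total RNA, and the level of each gene is given in TPM, a unit of transcript abundance that is scaled by transcript length and by library but keeps no record of sequencing depth. The family is covered by 10 genes, matched by symbol among 55353 genes. They are 4 receptors (Erbb4, Erbb2, Erbb3 and Egfr) and 6 ligands (Nrg1, Nrg2, Nrg3, Nrg4, Btc and Hbegf). The genes were chosen by family with the mutant and control TPM of these libraries already known, so their differences between the groups are described here and carry no test of their own.

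ErbB receptors are receptor tyrosine kinases that signal as pairs. Egfr binds EGF-type ligands, Erbb3 and Erbb4 bind neuregulins, Erbb2 has no known ligand and serves as a partner, and Erbb3 has a weak kinase and depends on its partner. Btc (betacellulin) and Hbegf (heparin-binding EGF-like growth factor) bind both Egfr and Erbb4. In the mouse testis Erbb4 is known from Sertoli cells, where it bears on the order of the seminiferous tubule, and neuregulins have been linked to the growth of spermatogonia and their entry into meiosis. Erbb4 is made in alternative forms. One choice lies in the stretch beside the membrane: the form called JM-a can be cut by the protease Adam17 and then by gamma-secretase, which frees the intracellular part, and the form called JM-b is not cut there. The other lies in the cytoplasmic tail, where the form called CYT-1 carries an extra stretch that binds PI3 kinase and WW domains and CYT-2 lacks it.

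The exons that make these choices are shown because the isoforms described further on differ by them. All are coding sequence of the Erbb4 gene (ENSMUSG00000062209.15, GRCm38 chromosome 1, 68032186 to 69108059, minus strand), written 5′ to 3′ on the coding strand from GENCODE M21 transcripts. The 75-nt juxtamembrane exon is exon 16 of Erbb4-201 and Erbb4-202 (chr1:68290243-68290317), and the 45-nt exon is exon 16 of Erbb4-205 (chr1:68290439-68290483). They are the JM-a and JM-b exons. The 48-nt exon is exon 26 of Erbb4-201 (chr1:68043908-68043955), is the CYT-1 exon, and is absent from Erbb4-202. Capitals mark the codons of its PPXY motif, a binding site of WW domains.
Erbb4 75-nt exon: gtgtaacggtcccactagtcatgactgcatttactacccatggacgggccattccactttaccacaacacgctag
Erbb4 45-nt exon: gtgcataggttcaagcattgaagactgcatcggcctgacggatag
Erbb4 48-nt exon: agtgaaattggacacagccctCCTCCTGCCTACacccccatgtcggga

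Some facts of the libraries bear on every value below. The deleted gene Rnu11 was at 196, 393 and 203 TPM in mutants 1, 2 and 3, against 614, 576 and 550.3 TPM in controls 1, 2 and 3. Between 30113 and 34510 genes per library were above 0. The short RNA Rn7s2 alone took 26.9% to 30.5% of the TPM, so a shift in such RNAs rescales every other gene. Of the 17959 genes that averaged 1 TPM or more, limma on log2(TPM + 1) called 5 at an adjusted p under 0.05 (0.0278%). The median log2 difference (mutant minus control) of these genes was 0.09.

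Of the 4 receptors, Erbb4 differed most between the groups. It stood at 8.79, 9.20 and 5.98 TPM in mutants 1, 2 and 3, against 2.29, 3.30 and 2.73 TPM in controls 1, 2 and 3. Every mutant was above every control, and the lowest mutant was mutant 3. The means were 7.99 ± 1.75 TPM in mutants and 2.78 ± 0.51 TPM in controls (SD, n = 3 each), a ratio of 2.88. On the log2(TPM + 1) scale, which understates changes of genes near 1 TPM, the difference was 1.24 (SE 0.18). Among all 17959 tested genes 104 had a larger positive difference, 12 of them among the 12790 that are protein-coding. The authors' deposited table gives Erbb4 a "single run" log2 fold change of 1.53 and a "confident" log2 fold change of 1.43. In bulk tissue, more cells of a type and more RNA per cell cannot be told apart.

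Egfr, the receptor of EGF itself, had 5.22, 7.91 and 4.29 TPM in mutants and 3.29, 5.15 and 3.42 TPM in controls. Control 2 was above mutant 3, so the groups overlapped. The means were 5.80 ± 1.88 TPM in mutants and 3.95 ± 1.03 TPM in controls (SD, n = 3 each), with a log2 difference of 0.44 (SE 0.23), which was 0.23 without mutant 2.

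Erbb2, the partner receptor without a ligand, had 4.16, 3.75 and 4.25 TPM in mutants and 4.08, 4.07 and 4.49 TPM in controls. The groups overlapped and their means lay within 1 SD of each other, at 4.05 ± 0.27 TPM in mutants and 4.21 ± 0.24 TPM in controls (SD, n = 3 each). Its log2 difference was −0.04 (SE 0.10), which was −0.13 after median-ratio scaling and −0.0006 without mutant 2. Erbb3, the neuregulin receptor with a weak kinase, had 1.53, 1.73 and 1.41 TPM in mutants and 1.07, 1.36 and 1.60 TPM in controls. The highest control was above mutants 1 and 3. Its log2 difference was 0.13 (SE 0.14), with values of 0.04 without control 1 and 0.21 without control 3.

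Because TPM is scaled by length, the levels of the 4 receptors can be set side by side. In mutants the order of the means was Erbb4, Egfr, Erbb2 and Erbb3; Erbb4 and Egfr overlapped, and the mean of Egfr was within its SD of Erbb2. In controls the order was Erbb2, Egfr, Erbb4 and Erbb3; Erbb2 and Egfr overlapped, as did the highest Erbb4 and the lowest Egfr value. Erbb4 made up 44.6%, 40.7% and 37.6% of the summed receptor TPM in mutants 1, 2 and 3, against 21.4%, 23.8% and 22.3% in controls 1, 2 and 3. This share averaged 41.0% ± 3.54 in mutants and 22.5% ± 1.24 in controls (SD, n = 3 each), and the groups did not overlap. The share of Erbb2 was 21.5% ± 5.04 in mutants and 34.7% ± 4.68 in controls (SD, n = 3 each), also without overlap. The summed receptor TPM was 19.7, 22.6 and 15.9 in mutants and 10.7, 13.9 and 12.2 in controls. Shares within a library do not depend on how libraries are scaled to each other, but a higher share of Erbb4 lowers the other 3 by construction.

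**Figure D1:**
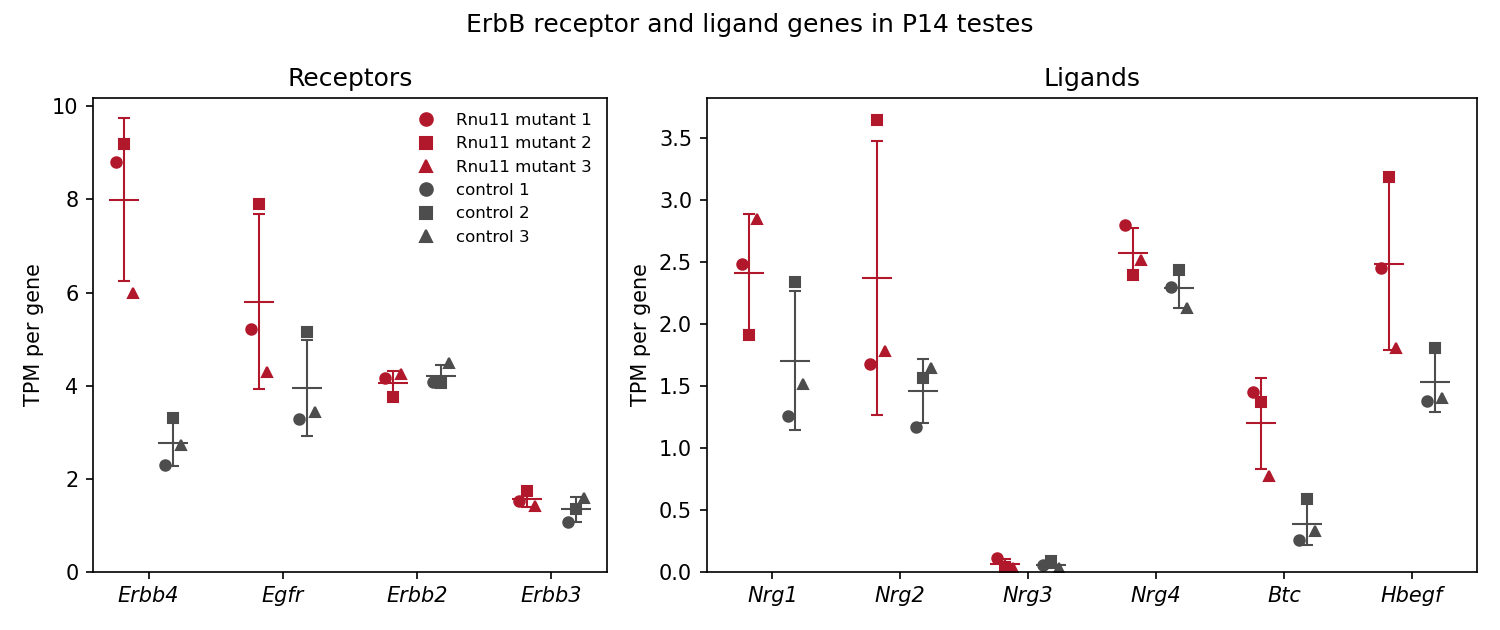
TPM of the 4 receptor genes (left) and the 6 ligand genes (right) in each library, with Rnu11 mutants in red left of controls in grey; horizontal marks are means and error bars SD (n = 3 each). Erbb4, Btc and Nrg2 have every mutant above every control, and the other 7 genes overlap. Among all tested genes 14.5% have every mutant above every control. Btc was under the filter and is not among the tested genes, and Nrg2 is separated narrowly (lowest mutant 1.68 TPM, highest control 1.64 TPM).

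**Figure D2:**
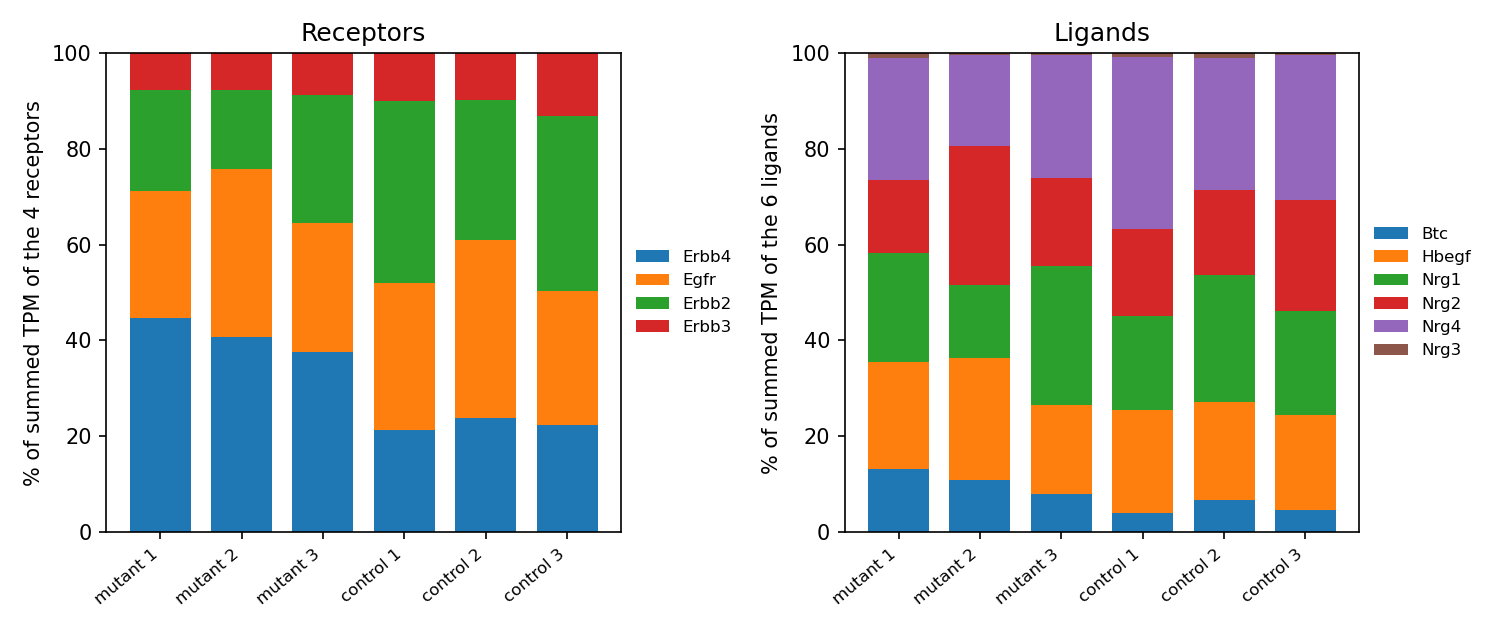
Percent of the summed TPM of the 4 receptors (left) and of the 6 ligands (right) taken by each gene, 1 bar per library. Erbb4 takes 37.6% to 44.6% of the receptor TPM in the mutant libraries and 21.4% to 23.8% in the control libraries.

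Among the ligands, Btc had the largest ratio between the groups. It stood at 1.45, 1.37 and 0.777 TPM in mutants 1, 2 and 3, against 0.254, 0.586 and 0.330 TPM in controls 1, 2 and 3. Every mutant was above every control, and again mutant 3 was the lowest mutant and control 2 the highest control. The means were 1.20 ± 0.37 TPM in mutants and 0.390 ± 0.174 TPM in controls (SD, n = 3 each), a ratio of 3.07. With a mean of 0.794 TPM over the 6 libraries Btc was under the 1 TPM filter; without a filter its log2 difference was 0.65 (SE 0.17). The authors' deposited table gives a "single run" log2 fold change of 1.62 and a "confident" value of 1.36. Btc lies on chromosome 5 (ENSMUSG00000082361.6, GRCm38, 91357261 to 91402994, minus strand).

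Hbegf, the other ligand of both Egfr and Erbb4, had 2.45, 3.18 and 1.81 TPM in mutants and 1.38, 1.81 and 1.40 TPM in controls. Mutant 3 and control 2 were almost equal, and the other libraries did not overlap. The means were 2.48 ± 0.69 TPM in mutants and 1.53 ± 0.24 TPM in controls (SD, n = 3 each), and the log2 difference was 0.45 (SE 0.18).

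Among the neuregulins, Nrg1, which binds Erbb3 and Erbb4, had 2.48, 1.91 and 2.85 TPM in mutants and 1.26, 2.34 and 1.52 TPM in controls. Control 2 was above mutant 2, and the log2 difference was 0.35 (SE 0.19; 0.23 without control 1). Nrg2, a ligand of the same receptors, had 1.68, 3.64 and 1.78 TPM in mutants and 1.17, 1.56 and 1.64 TPM in controls. All mutants were above all controls, but mutants 1 and 3 by little, and the log2 difference of 0.41 (SE 0.23) was 0.16 without mutant 2. Nrg4, a ligand of Erbb4, had 2.80, 2.40 and 2.52 TPM in mutants and 2.30, 2.44 and 2.12 TPM in controls, which overlapped. Its log2 difference was 0.12 (SE 0.11), which was 0.04 after median-ratio scaling, 0.02 after protein-coding scaling and 0.07 without mutant 1. Nrg3, also a ligand of Erbb4, was at 0.0323 to 0.113 TPM in mutants and 0.0329 to 0.0848 TPM in controls, so it was close to 0 in all 6 libraries.

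The summed ligand TPM was 10.97, 12.5 and 9.76 in mutants and 6.41, 8.82 and 7.05 in controls, without overlap. Of this sum Btc took 10.7% ± 2.63 in mutants and 5.10% ± 1.39 in controls, and Nrg4 took 23.5% ± 3.77 in mutants and 31.2% ± 4.18 in controls (SD, n = 3 each). Both shares were free of overlap, and those of Nrg1, Nrg2, Nrg3 and Hbegf overlapped. By mean TPM the ligands ran Nrg4, Hbegf, Nrg1, Nrg2, Btc and Nrg3 in mutants, and Nrg4, Nrg1, Hbegf, Nrg2, Btc and Nrg3 in controls. In mutants Nrg4, Hbegf, Nrg1 and Nrg2 overlapped, and in controls Nrg4 overlapped with Nrg1 and Nrg1 with Hbegf and Nrg2, while Btc and then Nrg3 stood below the others in both groups.

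Across the family, 8 of the 10 genes passed the filter of 1 TPM, and Nrg3 and Btc did not. None of the 8 was called by limma over all genes, beside 0.0278% of all tested genes. At an unadjusted p under 0.05, Erbb4 and Hbegf were higher and none was lower, beside 12.1% of all tested genes higher and 3.98% lower. Every mutant was above every control for 2 of the 8, Erbb4 and Nrg2, beside 14.5% of all tested genes, and none had every mutant below every control, beside 5.77%. The log2 difference was above 0 in 7 and below 0 in 1 (Erbb2), and the median over the 8 was 0.38, against 0.09 over all tested genes. All tested genes leaned the same way, as only 26.7% of them lay below the −0.04 of Erbb2. The counts of members describe genes chosen with this contrast known. With 3 libraries against 3, an exact permutation test of a single gene cannot give a p under 0.1. The library order was shared across genes: control 2 was the highest control for 7 of the 10 genes, and mutant 3 was the lowest mutant for 6.

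The 10 genes have 61 annotated isoforms in the deposited isoform tables. Of these, 8 passed a mean of 1 TPM and none of them was called by limma over 44197 isoforms (0.0136% called). Of the 8, 4 had an unadjusted p under 0.05, all higher in mutants, beside 8.06% of all tested isoforms higher. The same 4 had every mutant above every control, beside 11.6% of all tested isoforms. They were Erbb4-202, Erbb4-205, Egfr-201 and Hbegf-201. The Erbb4 isoforms among them share a gene and are not separate cases. Erbb4-202 averaged 0.927 TPM in controls and 2.47 TPM in mutants, so it passed the filter through its mutant level. These counts describe isoforms of genes chosen with this contrast known.

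Erbb4 RNA was spread over 5 annotated isoforms. The CYT-2 form with the 75-nt juxtamembrane exon, Erbb4-202, had 2.62, 2.98 and 1.82 TPM in mutants and 0.898, 1.03 and 0.849 TPM in controls. Its CYT-1 counterpart with the 48-nt exon, Erbb4-201, had 0.686, 0.757 and 0.405 TPM in mutants and 0.142, 0.295 and 0.207 TPM in controls. Erbb4-205, which carries the 45-nt exon, had 3.75, 4.402 and 2.51 TPM in mutants and 0.674, 1.36 and 1.57 TPM in controls. In all 3 coding isoforms every mutant was above every control. Erbb4-205 is annotated as an incomplete model of 2196 nt that ends in exon 19, so it does not show which cytoplasmic tail its transcripts carry.

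The make-up of Erbb4 RNA overlapped between the groups. Of the TPM of Erbb4-201 and Erbb4-202, the CYT-1 form took 19.7% ± 1.32 in mutants and 18.5% ± 4.38 in controls (SD, n = 3 each). Of the TPM of the 3 coding isoforms, Erbb4-205 took 53.1%, 54.1% and 53.1% in mutants 1, 2 and 3, against 39.3%, 50.6% and 59.8% in controls 1, 2 and 3. The mutants were close to each other, and the controls lay on both sides of them. Isoforms with the 75-nt exon summed to 3.09 ± 0.78 TPM in mutants and 1.14 ± 0.16 TPM in controls, and those with the 45-nt exon, Erbb4-205 and the short Erbb4-204 without a coding frame, to 4.14 ± 0.71 TPM in mutants and 1.44 ± 0.46 TPM in controls (SD, n = 3 each). The ratios were 2.71 and 2.88, beside 2.88 for the gene. The retained-intron isoform Erbb4-203 had 0.799, 1.06 and 0.426 TPM in mutants and 0.331, 0.158 and 0.104 TPM in controls, also with every mutant above every control. As a share of Erbb4 it was 9.25% ± 2.20 in mutants and 7.67% ± 5.88 in controls (SD, n = 3 each), which overlapped. Erbb4-204, without a coding frame, was listed at 0 in mutant 2 and in control 3.

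**Figure D3:**
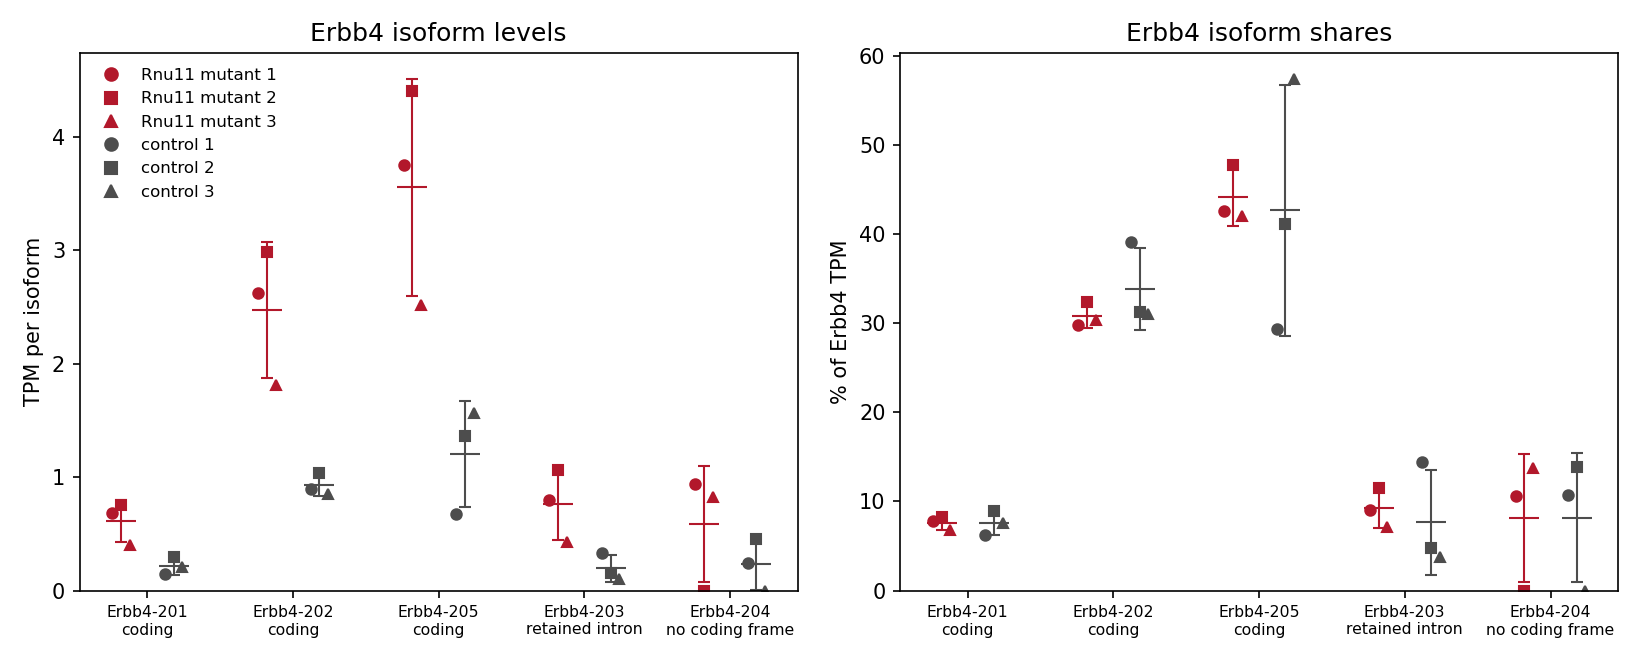
Level in TPM (left) and share of Erbb4 TPM in percent (right) of each Erbb4 isoform by library, mutants in red left of controls in grey; marks are means and error bars SD (n = 3 each). The 3 coding isoforms and the retained-intron Erbb4-203 have every mutant above every control in level, while the shares of all 5 isoforms overlap.

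For the other receptors, the full-length Egfr isoform Egfr-201, with the kinase, had 3.18, 4.63 and 3.17 TPM in mutants and 2.18, 3.00 and 1.82 TPM in controls, with every mutant above every control. Egfr-202, a shorter coding isoform of 16 exons that ends before the kinase, had 1.00, 0.832 and 0.889 TPM in mutants and 0.779, 1.03 and 0.932 TPM in controls, which overlapped. Its share of Egfr TPM was 16.8% ± 5.51 in mutants and 23.6% ± 3.62 in controls (SD, n = 3 each). The coding isoform Erbb2-201 took 67.2% ± 8.70 of Erbb2 TPM in mutants and 62.4% ± 4.92 in controls, and Erbb2-202, without a coding frame, took 24.3% ± 4.00 in mutants and 24.7% ± 4.95 in controls (SD, n = 3 each). Egfr-204, also without a coding frame, took 15.8% ± 10.4 of Egfr TPM in mutants and 15.9% ± 5.13 in controls (SD, n = 3 each). Erbb3 has 1 annotated isoform.

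Among the ligands, most Nrg4 RNA was assigned to isoforms without the coding frame of the growth factor. Nrg4-209, annotated as a processed transcript, took 53.0% ± 7.16 of Nrg4 TPM in mutants and 46.4% ± 11.2 in controls. Nrg4-207, annotated as a target of nonsense-mediated decay, took 23.3% ± 1.55 in mutants and 23.4% ± 1.68 in controls. The 2 protein-coding isoforms, Nrg4-204 and Nrg4-213, took 5.54%, 0% and 2.83% in mutants 1, 2 and 3, against 4.87%, 19.5% and 0% in controls 1, 2 and 3 (listed at 0 in mutant 2 and control 3). Nrg4-209 and Nrg4-207 share a 74-nt exon (GRCm38 chromosome 9, 55249096 to 55249169) that the coding isoforms lack, and Nrg4-209 also lacks a 94-nt coding exon. That coding exon (chr9:55280890-55280983, minus strand, GENCODE M21) is shown as the part of the coding frame that the most abundant isoform leaves out.
Nrg4 94-nt exon: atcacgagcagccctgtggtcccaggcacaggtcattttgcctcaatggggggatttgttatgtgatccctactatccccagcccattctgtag
Isoforms with the 94-nt exon and without the 74-nt exon took 9.40% ± 3.71 of Nrg4 TPM in mutants and 14.7% ± 9.10 in controls. These are 3 isoforms, the 2 coding ones and the retained-intron Nrg4-201. Nrg4-201 alone took 6.61% ± 1.54 in mutants and 6.61% ± 2.59 in controls, and it was the whole class in mutant 2 and control 3. Isoforms with both exons took 23.8% ± 1.73 in mutants and 26.2% ± 2.21 in controls (SD, n = 3 each).

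In Nrg2, the short coding model Nrg2-202 had 0.808, 2.21 and 0.978 TPM in mutants and 0.309, 0.449 and 0.664 TPM in controls. Its share of all Nrg2 TPM was 54.6% ± 6.25 in mutants and 31.8% ± 7.46 in controls (SD, n = 3 each), without overlap. Nrg2-203, the longer coding isoform, had 0.870, 1.13 and 0.804 TPM in mutants and 0.744, 0.783 and 0.643 TPM in controls. With isoforms averaging under 0.1 TPM left out, the share of Nrg2-202 differed by 17.6 percentage points, against 22.7 points over all isoforms. Only Nrg2-202 and Nrg2-203 then remained, and the groups overlapped. Nrg2-202 was below Nrg2-203 in mutant 1 and above it in control 3. At a mean of 0.902 TPM, Nrg2-202 was under the filter and was not tested. The coding isoform Btc-201 had 1.20, 1.16 and 0.490 TPM in mutants and 0.217, 0.533 and 0.134 TPM in controls, so control 2 was above mutant 3. The coding isoform Hbegf-201 had 2.21, 2.19 and 1.66 TPM in mutants and 1.25, 1.57 and 1.10 TPM in controls, without overlap. For Nrg1, the 18 matched isoforms leave 23.9% ± 13.7 of the gene's TPM in mutants and 29.9% ± 3.39 in controls (SD, n = 3 each) to isoforms that could not be matched to GENCODE M21, so its forms are not described further.

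Whole testis mixes cell types, and the markers of several differed between the groups along with the family. Among all tested genes, 12.1% were higher and 3.98% lower at an unadjusted p under 0.05, and the median log2 difference was 0.09. Only 26.7% of all tested genes had a log2 difference below −0.04. Of 11 Sertoli cell markers, all were higher in mutants, 10 at an unadjusted p under 0.05 and none called by limma, with a median log2 difference of 0.43. Their summed level was 2227 to 2826 TPM in mutants and 1627 to 1822 TPM in controls. All 7 Leydig cell markers were higher, 5 at an unadjusted p under 0.05 and none called, with a median of 1.06 and a summed level of 246 to 383 TPM in mutants and 124 to 235 TPM in controls. All 7 macrophage markers were above 0 in log2 difference (median 0.43; 42.9 to 62.1 TPM summed in mutants and 30.3 to 48.4 TPM in controls), as were all 7 endothelial markers (median 0.19; 22.2 to 30.1 TPM in mutants and 19.8 to 24.4 TPM in controls). Of 6 peritubular myoid markers 4 were above 0 (median 0.16). At an unadjusted p under 0.05, 2 macrophage markers were higher, and 0 endothelial or peritubular myoid markers were higher or lower. Markers of undifferentiated spermatogonia had 6 of 8 above 0 (median 0.15), with 1 higher at an unadjusted p under 0.05. All 6 of differentiating spermatogonia were below 0 (median −0.31), with 4 lower at an unadjusted p under 0.05. None was called in either list. All 9 meiotic prophase markers were lower, each at an unadjusted p under 0.05 and none called, with a median of −0.64 and a summed level of 253 to 324 TPM in mutants and 375 to 458 TPM in controls. Markers of Schwann cells and nerve, which carry Erbb3, summed to 14.1 to 21.1 TPM in mutants and 14.5 to 16.2 TPM in controls. Of 7 rete and epididymal markers only Pax8 averaged over 1 TPM, and Lcn5 was at 0 in all 6 libraries. The part of these cell types in the values of the family was not tested.

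Per library, the members could be set beside these markers as log2(TPM + 1) minus the mean of the 6 libraries. Erbb4 stood at 0.76, 0.82 and 0.28 in mutants 1, 2 and 3, against −0.81, −0.42 and −0.63 in controls 1, 2 and 3. The mean of the Sertoli markers stood at 0.27, 0.41 and −0.02 in mutants and −0.30, −0.10 and −0.26 in controls. Erbb4 minus the Sertoli mean was thus 0.49, 0.41 and 0.29 in mutants and −0.51, −0.33 and −0.36 in controls, a difference of 0.80 without overlap. With log2(TPM + 0.1) it was 1.03, also without overlap. Erbb4, Btc, Hbegf and Egfr are all at low TPM and lose more of their difference to the added 1 TPM than the abundant Sertoli markers do. Their remainders therefore depend on the added value, that of Erbb4 included, and that of Egfr changed least. For Btc the remainder was 0.21 with 1 TPM added and 0.97 with 0.1 TPM added, without overlap in either. For Hbegf it was 0.005 with 1 TPM added and 0.19 with 0.1 TPM added, and for Egfr it was 0.001 and 0.07 in that order, all with overlap. The mean of the Leydig markers stood at 0.31, 0.97 and 0.32 in mutants and −0.90, 0.15 and −0.84 in controls. Against it, Erbb4 differed by 0.18 with 1 TPM added and 0.35 with 0.1 TPM added, with overlap in both; with 1 TPM added it was −0.06 without control 2 and −0.005 without mutant 1. Btc changed sign with the added value, at −0.41 with 1 TPM and 0.29 with 0.1 TPM, both with overlap. Hbegf differed by −0.62 with 1 TPM added and −0.49 with 0.1 TPM added, with overlap, and Egfr by −0.62 and −0.60 in that order, with every mutant below every control. Control 2 had the highest mean of the controls for Sertoli, Leydig and macrophage markers and the lowest for meiotic prophase, and it was also the highest control for Erbb4, Egfr, Nrg1, Nrg3, Nrg4, Btc and Hbegf. These remainders, and the smaller added value for them, were chosen after the values had been seen.

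**Figure D4:**
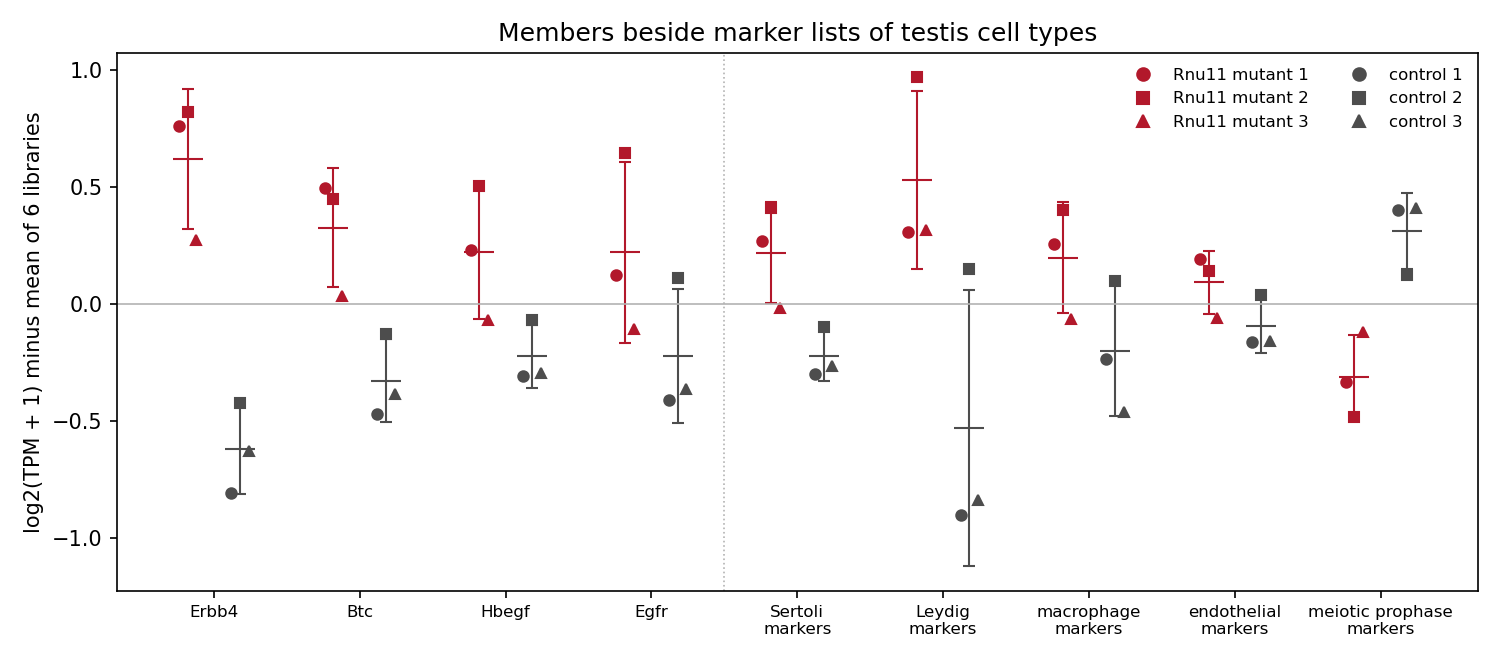
Erbb4, Btc, Hbegf and Egfr (left of the dotted line) and the mean of the tested markers of 5 testis cell types (right), as log2(TPM + 1) minus the mean of the 6 libraries; mutants in red left of controls in grey, marks are means and error bars SD (n = 3 each). Sertoli and Leydig markers and Erbb4 and Btc have every mutant above every control, and meiotic prophase markers have every mutant below every control.

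The genes whose pattern over the 6 libraries was most like that of Erbb4 were Wfdc9, Lipg, Tnfrsf12a, Echdc3 and Ecm1, among 9326 protein-coding genes of at least 5 TPM. Likeness was the root mean square difference of the 6 centred log2 values, which ran from 0.19 for Wfdc9 to 0.24 for Ecm1. The values were centred over both groups, so likeness includes the difference between the groups and does not show shared variation within a group. The choice thus favours genes that, like Erbb4, have every mutant above every control, as all 5 had. Their log2 differences ran from 0.84 for Ecm1 to 1.14 for Wfdc9 and are no separate result. Wfdc9 averaged 17.1 ± 2.54 TPM in mutants and 7.33 ± 2.20 TPM in controls (SD, n = 3 each).

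The rest of the pathway was read from 5 lists of genes outside the family, and limma called none of their tested genes. Their counts stand beside 12.1% of all tested genes that were higher in mutants at an unadjusted p under 0.05, and their medians beside 0.09 over all tested genes. Only 26.7% of all tested genes had a log2 difference below −0.04, so counts above 0 are high in most lists. Of 5 other EGF-family ligands, Egf and Tgfa passed the filter. Egf, which gave the family its name, averaged 1.54 ± 0.08 TPM in mutants and 1.47 ± 0.43 TPM in controls, and Tgfa 1.17 ± 0.22 TPM in mutants and 1.12 ± 0.09 TPM in controls (SD, n = 3 each). Areg, Ereg and Epgn were under 0.1 TPM in every library.

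All 11 genes of the proteases that shed ligands or cut receptors were above 0 in log2 difference, with a median of 0.29, and 2 of the 11 had an unadjusted p under 0.05, beside 12.1% of all tested genes. These were Rhbdf2, which helps Adam17 to mature, at 28.5 ± 4.03 TPM in mutants and 21.03 ± 4.39 TPM in controls, and the sheddase Adam10, at 33.6 ± 4.75 TPM in mutants and 26.8 ± 2.73 TPM in controls (SD, n = 3 each; limma adjusted p = 0.30 and 0.31 over all genes). Psen2, a gamma-secretase subunit, had a log2 difference of 0.28. Adam17 stood at 29.7, 38.4 and 27.6 TPM in mutants and 20.1, 28.3 and 26.8 TPM in controls, which overlapped.

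Of 25 adaptors and signal carriers 21 were above 0 and 4 below, with a median of 0.15. Only 2 of the 25 were higher at an unadjusted p under 0.05, a smaller share than the 12.1% of all tested genes. Of these, Stat5b, a transcription factor that Erbb4 activates, averaged 13.9 ± 1.11 TPM in mutants and 9.77 ± 1.62 TPM in controls, and the Ras activator Sos1 averaged 21.8 ± 2.90 TPM in mutants and 16.5 ± 2.34 TPM in controls (SD, n = 3 each; limma adjusted p = 0.29 for both). Pik3r1, a regulatory subunit of PI3 kinase, had a log2 difference of 0.43. Of 17 negative regulators 14 were above 0 and 3 below (median 0.15). Of the 17, 2 were higher at an unadjusted p under 0.05, a share close to the 12.1% of all tested genes. They were the feedback inhibitors Spry2 and Spry4, with log2 differences of 0.41 and 0.44, and the ubiquitin ligase Nedd4 was at 0.32.

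All 10 tested genes of the ERK response were above 0, with a median of 0.32, and 3 of the 10 had an unadjusted p under 0.05, beside 12.1% of all tested genes. The phosphatase gene Dusp6 averaged 10.7 ± 1.22 TPM in mutants and 7.80 ± 0.97 TPM in controls, Jun 19.2 ± 3.26 TPM in mutants and 13.5 ± 1.23 TPM in controls, and Egr1 9.20 ± 1.35 TPM in mutants and 6.34 ± 1.06 TPM in controls (SD, n = 3 each; limma adjusted p = 0.29 for each). In 5 of the 10, every mutant was above every control, beside 14.5% of all tested genes. This list holds Etv5, which is also a marker of undifferentiated spermatogonia, and its genes respond to other receptors too.

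**Figure D5:**
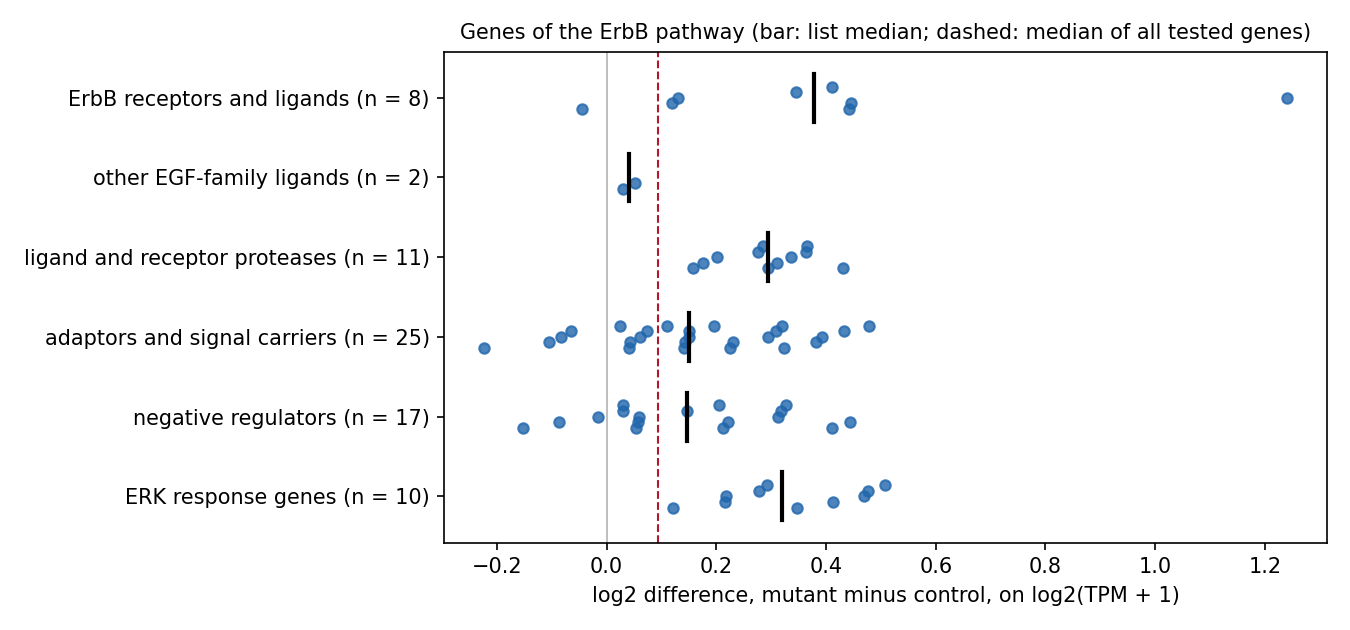
Log2 difference (mutant minus control) of each tested gene of the family and of 5 pathway lists, 1 point per gene; black bars are list medians and the dashed line is the median of all tested genes. Erbb4 lies at 1.24, while every other gene shown lies between −0.22 and 0.51.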

How the data were processed

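Whole testes of 3 mutant and 3 control mice at postnatal day 14 were taken as 1 library per animal, grouped by the labels' genotype. The submitters' processing notes name HISAT2 and the build GRCm38; the sources used here give neither the quantification tool nor its annotation. The files that the authors deposited hold TPM of genes and of isoforms, without counts, so no counting interval is given. Log2 fold changes in the authors' deposited table are used for description only. Genes and isoforms with a mean of at least 1 TPM were fitted with limma 3.58.1 in R 4.3.3 on log2(TPM + 1) with a mean-variance trend. Tests were two-sided, and a gene was called at a Benjamini-Hochberg adjusted p under 0.05. Log2 differences are mutant minus control. The fit was tested on simulated data. Isoform shares were divided by gene TPM, and isoforms were matched to GENCODE M21 (GRCm38). Members, gene lists and marker lists were chosen with earlier results of these data known. Named are all members, the 3 genes of each pathway list with the smallest p-values and the 5 genes most like Erbb4. Member isoforms of at least 0.5 TPM and 10% of their gene are named too. Erbb4-201, Erbb4-203, Erbb4-204, the coding isoforms of Nrg4, Nrg4-201, Adam17, Etv5, Areg, Ereg, Epgn, Pax8 and Lcn5 were named after their values were seen. Alternatives were another pseudocount, other filters, scaling by median ratios or by the nuclear protein-coding total, a fit without trend, a fit with a replicate block, and leaving out each library; members set beside marker means were recomputed with the smaller pseudocount as an alternative chosen after seeing the data. Python 3.11.15, pandas 2.3.3 and matplotlib 3.10.9 were used elsewhere.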

Additional observations from a re-analysis of the deposited data

How the results depend on the processing

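No member and no pathway gene was called under any of the 13 alternatives, and no tested member changed the sign of its log2 difference. Erbb4 kept a log2 difference of 1.13 to 1.48, with a limma adjusted p of 0.0901 to 0.625. The count of genes called, 5 of all tested, was 8 with a pseudocount of 0.1 TPM, 3 with a filter of 5 TPM, with either scaling or without trend, and 0 with no filter; it ran from 2 to 8 with a library left out. The count of isoforms called, 6, was 11 with the smaller pseudocount and ran from 2 to 11 with a library left out. With a replicate block, 0 genes and 0 isoforms were called. No pairing by replicate number was seen over all genes. Same-numbered libraries deviated from their group means with correlations over genes of −0.07, 0.04 and 0.08, and not every library correlated best with its own number. With 3 libraries per group these correlations cannot show that the libraries were unpaired. The share of Nrg4-207 differed by −3.33 percentage points when isoforms under 0.1 TPM were left out, against −0.05 points as reported. The share of Erbb4 in receptor TPM differed by 16.7 to 20.2 percentage points with a library left out. The causes were not tested. Without depth, the precision of genes near 1 TPM, such as Btc, Erbb3 and single isoforms, is known only from the spread of the 3 libraries per group.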
